A study of Mus musculus with 17 samples.

Results

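Prx, Mbp, Cnp, Pmp22, Drp2, Cldn19, Sox10 and Egr2 are mouse genes known from the myelin of peripheral nerve and from the Schwann cells that make it. They were taken by symbol, from a list chosen with earlier results of these data known. They make up 8 of the 54658 genes in the authors' deposited table of CPM values, which scale the reads of a gene to the same total in every library. RNA of fat and fat implants was sequenced in 16 libraries, 2 for each of 8 group codes. MWM and MWF are implants grown from wildtype (WT) mouse embryonic fibroblasts, called MEF, in male and female mice. MKM and MKF are implants from MEF labelled knockout (KO), likewise in males and females. The design names wildtype pups and pups heterozygous or homozygous for a leptin knockout as donors of the MEF. Mice of these 4 codes had knee surgery. ESM is the subcutaneous fat of males with surgery, EVM is visceral fat with surgery, and EVFN is visceral fat of mice without surgery. EVFY has the genotype label Vis and is not spelled out by the labels, and a sample coded ESF is not analysed here. The implants were injected under the skin over the sternum of hosts called LD in the series' design, at 3 to 5 weeks of age. Surgery destabilized the medial meniscus of the left knee at 16 weeks, and tissue was taken at 28 weeks. The design text calls the hosts male, although MWF and MKF are spelled out as female, and the genotype of the mice behind the E codes is not given. The leptin allele, and whether the 2 libraries of a code came from separate animals, are not given either, so p-values measure the spread between these libraries.

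In peripheral nerve a Schwann cell wraps its membrane many times around a length of axon and compacts the layers into myelin, which speeds conduction. Sox10 and Egr2 are the transcription factors that drive Schwann cells to this state, and they switch on the genes of the sheath proteins. Fat is supplied by fine nerves, mostly sympathetic fibres with little myelin, together with sensory fibres, and thicker nerve branches cross the subcutaneous layer. In bulk RNA, fewer Schwann cells in a piece of tissue and less RNA per Schwann cell cannot be told apart.

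The libraries held 16444965 to 25805502 reads, so 1 read was worth 0.0388 to 0.0608 CPM. The labels name the tissue as ganglia and the cell type as sensory ganglion. Over the 14 libraries used for group means, 15 markers of axons and peripheral neurons summed to only 11.6 to 93.0 CPM, and 8 adipocyte markers to 10695 to 31781 CPM. Isl1, a transcription factor gene of peripheral neurons, reached at most 3.84 CPM, and the groups are therefore described below by their codes. Lep, the gene that the KO label names, was at 1336 to 1726 CPM in the 3 libraries labelled KO and at 806 to 2675 CPM in the 4 labelled WT. Its log2 difference was 0.07 (SE 0.28, adjusted p = 0.891, limma). The Lep transcript thus did not separate the libraries labelled KO from those labelled WT, and every direction given below for that contrast rests on the labels. The libraries labelled EVFN1 and MKM1 stand apart from the others of their codes. The 7 macrophage markers summed to 6771 CPM in EVFN1, against 589 to 1957 CPM in the other visceral libraries, and to 909 CPM in MKM1, against 4210 to 4925 CPM in the other libraries labelled KO. The rule that set the 8 genes shows both singly and leaves them out of group means, and they were left out of the tests too. This leaves MKM and EVFN with 1 library each. Macrophage markers are compared below without these 2 libraries, so those differences depend on this choice.

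Markers of other glia were checked first, since several of these genes are also active in the myelin of the central nervous system. Mog and Opalin, which mark the oligodendrocytes of the brain and spinal cord, reached at most 0.227 and 0.0608 CPM in the 14 libraries. The other markers of that list of 7 are less restricted: Cldn11 reached 27.3 CPM (EVM1), Olig1 7.84 CPM (MWF2), Mag, which Schwann cells also make, 4.2 CPM (ESM1), Mobp 1.75 CPM and Olig2 0.486 CPM, and the list summed to 1.55 to 28.5 CPM. The melanocyte enzyme gene Tyr, checked because Sox10 is also active in pigment cells, was at 0 CPM in 12 of the 14 libraries. Of the other 5 melanocyte markers, Mitf, which macrophages also express, was at 16.7 to 56.1 CPM, Mlana reached 3.63 CPM (ESM1), Pmel 2.57 CPM, Dct 2.09 CPM and Tyrp1 0.282 CPM. Mlana was lower in visceral than in subcutaneous fat (adjusted p = 0.0394, limma), as Sox10 was. In the implants the 2 genes went opposite ways. Mlana was at 1.11 to 3.39 CPM in those labelled KO and 0.226 to 0.638 CPM in those labelled WT. Sox10 was at 2.51 to 6.11 CPM and 7.85 to 19.4 CPM there. Of the 6 markers of satellite glia, the glia of ganglia, Kcnj10 reached 25.5 CPM (MWF2) and Fabp7 5.17 CPM (MWF2). The others were higher, Gja1 at 26.9 to 222 CPM, Slc1a3 at 22.9 to 303 CPM, Glul at 795 to 1873 CPM and Apoe at 2847 to 6421 CPM. The part of pigment cells and of satellite glia in the level of Sox10 was not tested.

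Upstream sequences in the RefSeq promoter table (build GRCm38.p6) were matched for 5 of the 8 genes. Those of Prx and Cldn19 are shown because these 2 genes followed each other across the libraries, and that of Cnp because Cnp departed from them. Each run has 215 bases of the plus strand, from 250 to 36 bases before the RefSeq start, at chr7:27499074-27499288 for Prx, chr4:119255191-119255405 for Cldn19 and chr11:100574689-100574903 for Cnp. Capitals mark matches, on either strand, to 2 kinds of word. The Egr core was searched as GTGGGNG, with the further form GCGGGNG. The Sox core was searched as ACAAAG, with the further form ACAATG, and likewise as TCAAAG, with the further form TCAATG. No match overlapped another.
Prx upstream: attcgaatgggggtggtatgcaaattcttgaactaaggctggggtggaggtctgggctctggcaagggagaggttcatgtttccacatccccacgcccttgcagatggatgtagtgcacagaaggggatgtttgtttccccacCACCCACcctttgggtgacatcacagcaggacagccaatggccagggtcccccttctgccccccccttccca
Cldn19 upstream: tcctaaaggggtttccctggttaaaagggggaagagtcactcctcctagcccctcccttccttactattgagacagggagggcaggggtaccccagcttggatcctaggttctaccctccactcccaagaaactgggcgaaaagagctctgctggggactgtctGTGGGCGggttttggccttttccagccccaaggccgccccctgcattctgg
Cnp upstream: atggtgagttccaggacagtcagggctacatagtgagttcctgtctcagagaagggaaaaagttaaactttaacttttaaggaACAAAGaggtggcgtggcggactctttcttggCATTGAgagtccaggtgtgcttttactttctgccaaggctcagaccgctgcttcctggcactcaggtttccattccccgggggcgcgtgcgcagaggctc
The Prx run held 1 Egr core on the minus strand, read here as CACCCAC, 107 to 101 bases before the start. The Cldn19 run held 1 on the plus strand, GTGGGCG, 86 to 80 bases before the start. Neither held a Sox core. The Cnp run held no Egr core and 2 Sox cores, ACAAAG at 167 to 162 bases and CATTGA on the minus strand at 135 to 130 bases before the start. Such short words are common: of 32851 upstream windows of the same length, 36.6% held an Egr core and 36.0% a Sox core. A match is therefore a description of these letters and not a binding site.

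Prx encodes periaxin, a scaffold protein of the Schwann cell membrane, and lies on chromosome 7 (27499324 to 27520214, plus strand, mm10). It was at 84.0 (ESM1) and 57.3 CPM (ESM2) in subcutaneous fat. In the implants labelled WT it was at 15.8 (MWM1), 15.7 (MWM2), 21.7 (MWF1) and 21.3 CPM (MWF2), and in those labelled KO at 10.03 (MKM2), 5.51 (MKF1) and 7.08 CPM (MKF2). Visceral fat had 5.64 (EVM1), 2.83 (EVM2), 7.69 (EVFY1), 9.59 (EVFY2) and 6.89 CPM (EVFN2). The subcutaneous, WT and KO libraries formed 3 levels with no overlap, and the visceral range overlapped that of the implants labelled KO. MKM1 and EVFN1, at 7.93 and 6.90 CPM, lay in this lowest range.

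Drp2 encodes dystrophin-related protein 2, which binds periaxin and ties it to dystroglycan and the basal lamina, and lies on chromosome X (134404551 to 134456573, plus strand). Subcutaneous fat had 54.2 (ESM1) and 37.5 CPM (ESM2). The implants labelled WT had 10.1 (MWM1), 9.71 (MWM2), 14.8 (MWF1) and 20.6 CPM (MWF2), and those labelled KO had 7.84 (MKM2), 2.75 (MKF1) and 4.81 CPM (MKF2). The 5 visceral libraries lay between 1.90 (EVM2) and 6.19 CPM (EVFY2). Drp2 thus had the same order of groups as Prx, again with no overlap down to the implants labelled KO. Across the 14 libraries, the highest level was 28.5 times the lowest for Drp2 and 29.7 times for Prx.

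Cldn19 encodes claudin-19, a tight junction protein of Schwann cell membranes, and lies on chromosome 4 (119255414 to 119262438, plus strand). It was the lowest of the 8 genes per length, at 0.787 CPM per kilobase of exon (mean over the 14 libraries). Subcutaneous fat had 15.4 (ESM1) and 11.6 CPM (ESM2), and the implants labelled WT had 3.9 (MWM1), 2.60 (MWM2), 4.2 (MWF1) and 3.65 CPM (MWF2). The implants labelled KO had 1.48 (MKM2), 0.821 (MKF1) and 1.16 CPM (MKF2), and visceral fat had 0.167 (EVM1), 0 (EVM2), 0.855 (EVFY1), 0.548 (EVFY2) and 0.594 CPM (EVFN2). The value of EVM1 rests on 3 reads. With no read in EVM2, which allows up to 0.116 CPM (3 reads, counting error only), the level of ESM1 was at least 133-fold higher than that of EVM2.

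Mbp encodes myelin basic protein, which holds together the inner faces of the compacted membrane, and lies on chromosome 18 (82475146 to 82585637, plus strand). The same locus also gives longer golli transcripts outside myelin. It was at 304 (ESM1) and 237 CPM (ESM2) in subcutaneous fat, at 81.7 (MWM1), 95.9 (MWM2), 110 (MWF1) and 120 CPM (MWF2) in the implants labelled WT, and at 81.1 (MKM2), 76.5 (MKF1) and 88.1 CPM (MKF2) in those labelled KO. Visceral fat ran from 48.1 (EVM2) to 66.3 CPM (EVFY1), with a median of 58.7 CPM (EVM1). The order of groups was that of Prx, but the implants labelled WT and KO overlapped, and the span was smaller, the highest library being 6.31 times the lowest.

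Cnp encodes a phosphodiesterase (CNPase) of the cytoplasmic channels of myelin and is also active at a low level in other cells. It lies on chromosome 11 (100574904 to 100591729, plus strand). The 2 female implants labelled WT stood above all others, at 102 (MWF1) and 86.5 CPM (MWF2), followed by subcutaneous fat at 51.4 (ESM1) and 52.2 CPM (ESM2). The male implants labelled WT had 32.2 (MWM1) and 32.0 CPM (MWM2), those labelled KO had 35.6 (MKM2), 36.0 (MKF1) and 32.7 CPM (MKF2), and visceral fat ran from 19.8 (EVM2) to 36.2 CPM (EVFY2). Outside MWF and ESM, the groups of Cnp were thus close together or overlapped.

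Pmp22 encodes peripheral myelin protein 22, a membrane protein of compact myelin whose gene dose is altered in inherited neuropathy, and which was first described in growth-arrested fibroblasts. It lies on chromosome 11 (63128982 to 63159547, plus strand) and was the highest of the 8 genes per length, at 73.8 CPM per kilobase of exon against 12.5 for Mbp and 11.9 for Cnp. Subcutaneous fat had 257 (ESM1) and 255 CPM (ESM2), and the implants labelled KO had 208 (MKM2), 205 (MKF1) and 262 CPM (MKF2). The implants labelled WT were at 142 (MWM1), 160 (MWM2), 89.8 (MWF1) and 129 CPM (MWF2) and overlapped visceral fat, which ran from 109 (EVFN2) to 174 CPM (EVM2). Pmp22 varied least, 2.92-fold between the lowest and the highest library. It was high in the implants labelled KO, where Prx, Drp2 and Cldn19 were low.

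Sox10, the transcription factor that defines the Schwann cell lineage and its neural crest relatives, lies on chromosome 15 (79154908 to 79165240, minus strand). It was at 20.02 (ESM1) and 13.2 CPM (ESM2) in subcutaneous fat and at 10.3 (MWM1), 7.85 (MWM2), 8.77 (MWF1) and 19.4 CPM (MWF2) in the implants labelled WT. The implants labelled KO had 6.11 (MKM2), 2.51 (MKF1) and 3.82 CPM (MKF2), and visceral fat ran from 0.893 (EVM1) to 4.82 CPM (EVFY2). The subcutaneous and WT ranges overlapped, as did those of the implants labelled KO and visceral fat, with a gap between these 2 pairs.

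Egr2, also called Krox20, is the transcription factor needed for Schwann cells to myelinate, and it is also induced in macrophages and lymphocytes. It lies on chromosome 10 (67535475 to 67542188, plus strand). Its highest levels among the 14 libraries were in the implants labelled KO, at 27.4 (MKM2), 28.5 (MKF1) and 33.1 CPM (MKF2). The implants labelled WT had 14.7 (MWM1), 9.04 (MWM2), 8.50 (MWF1) and 11.4 CPM (MWF2). Visceral fat had 12.3 (EVM1), 18.4 (EVM2), 2.71 (EVFY1), 2.47 (EVFY2) and 6.54 CPM (EVFN2), and the 2 subcutaneous libraries differed widely, at 6.47 (ESM1) and 24.6 CPM (ESM2). The library with the most Prx, ESM1, had little Egr2, while Pmp22 was also high in the implants labelled KO. EVFN1 held the highest value of all 16 libraries, 43.6 CPM, and MKM1 had 7.66 CPM.

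**Figure D1:**
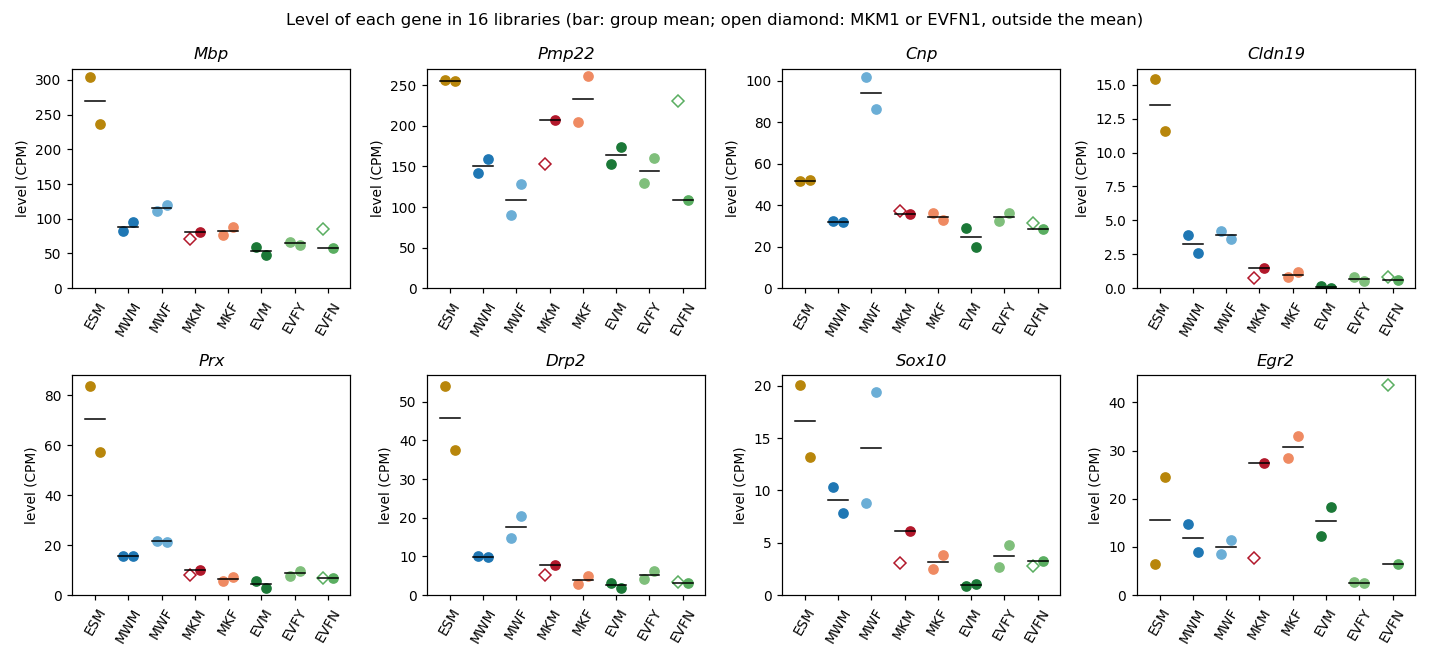
Level in CPM (vertical axis, linear, from 0) of each of the 8 genes in all 16 libraries, by group code (horizontal axis), with filled points for the libraries in the group means, bars for those means (1 library only for MKM and EVFN) and open diamonds for MKM1 and EVFN1. Mbp, Cldn19, Prx, Drp2 and Sox10 are highest in ESM, Cnp is highest in MWF, and Egr2 is high in MKM2 and both MKF libraries.

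Levels were compared by limma on log2(CPM + 0.5), in 1 model over the 8 codes, with p-values adjusted by Benjamini-Hochberg over all 17871 genes tested and a call at an adjusted p under 0.05. Fold changes on this scale understate the change of low genes such as Cldn19. All 8 genes passed the filter on low values. The percentage of all tested genes called in a comparison is given beside each count as its background. The comparisons share libraries with each other, so their values are set side by side and are not independent.

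For Cldn19, Drp2, Prx, Sox10 and Mbp, the fold between visceral and subcutaneous fat was the largest of the 10 comparisons. In visceral fat, 7 of the 8 genes were lower, where the background was 1.2% of all tested genes called, and the median log2 difference of the 8 was -2.38 against 0.05 over all tested genes. Cldn19 was 15.2-fold lower (log2 difference -3.93, SE 0.26, adjusted p = 0.000179), Drp2 11.6-fold (-3.54, SE 0.29, adjusted p = 0.000524) and Prx 10.4-fold lower (-3.38, SE 0.25, adjusted p = 0.000439). Sox10 fell 5.92-fold and Mbp 4.56-fold. Cnp and Pmp22 had log2 differences of -0.85 and -0.90, with adjusted p-values of 0.0376 and 0.04997, close to the threshold. Egr2 was not called (-0.93, SE 0.44, adjusted p = 0.541) and its groups overlapped. Without ESM1 or without ESM2, the 4 calls of Prx, Drp2, Cldn19 and Mbp were left. Subcutaneous fat came only from males with surgery, and no female library of it was analysed here. The visceral side, here and below, joins EVM with surgery, EVFN without it and EVFY, which is not spelled out. Mean Sox10 was 0.95 CPM in EVM and 3.77 CPM in EVFY, and EVFN2 had 3.27 CPM. Mean Cldn19 was 0.084 CPM in EVM and 0.70 CPM in EVFY, and EVFN2 had 0.59 CPM. The part of surgery and sex in this comparison was not tested.

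Other genes of the sheath and the node of Ranvier moved in the same direction. Of 18 such genes, 17 were tested, 9 were lower in visceral fat and 1, the nodal adhesion gene Cntn1, was higher. Cntn1 was high only in part of the visceral libraries, at 10.3 (EVFY1), 16.9 (EVFY2) and 5.58 CPM (EVFN2). In EVM1 and EVM2 it was at 0.725 and 0.155 CPM, against 0.454 (ESM1) and 0.740 CPM (ESM2). Ugt8a and Fa2h, enzymes that make the galactolipids of myelin, had log2 differences of -3.50 (SE 0.27, adjusted p = 0.000515) and -3.26 (SE 0.30, adjusted p = 0.00112). Of 22 genes of the Schwann lineage and its regulators, 20 were tested and 3 were called, all lower: the cadherin Cdh19 (-2.31), the transcription factor gene Pou3f1 (-1.44) and the signalling gene Dhh (-1.23, adjusted p = 0.05 as rounded).

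The axon list did not separate these 2 kinds of fat. Of its 14 tested genes, 0 were called by limma and 0 by edgeR, with 3 at an unadjusted p under 0.05 (Isl1 1.52, Nefl -0.60 and Avil -0.56 on the log2 scale), and the list summed to 14.4 to 20.4 CPM in subcutaneous and 11.6 to 20.7 CPM in visceral fat. Nefl, the light chain of neurofilaments, was at 0.227 (ESM1) and 0.342 CPM (ESM2), and at 0 to 0.0558 CPM in visceral fat. RNA of neurons lies largely in cell bodies outside the tissue, and these levels are no count of axons. The 7 skeletal muscle markers (0 called by limma, 0 by edgeR and 0 at an unadjusted p under 0.05) summed to 137 CPM in ESM1 and 16448 CPM in ESM2. Prx was higher in ESM1 than in ESM2. The part of muscle tissue, and of the nerves within it, in the subcutaneous levels was not tested. Of the 8 genes, Egr2, Cnp and Pmp22 excepted, all had their highest value in ESM1.

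The implants labelled WT were above visceral fat for 6 of the 8 genes, with a background of 22.4% called, and below subcutaneous fat for 5 of the 8, with a background of 10.4%. Against visceral fat, Cldn19 was 4.44-fold higher (log2 difference 2.15, SE 0.21, adjusted p = 0.000645), Sox10 4.02-fold (2.01, SE 0.28), Drp2 3.49-fold (1.80, SE 0.23) and Prx 2.81-fold higher (1.49, SE 0.21). Cnp and Mbp rose by 0.93 (SE 0.12) and 0.79 (SE 0.11) on the log2 scale. For Cnp the groups overlapped: MWM1 and MWM2 lay within the visceral range, and MWF1 and MWF2 above it. Pmp22 was at -0.11 (adjusted p = 0.607) and Egr2 at 0.68 (adjusted p = 0.193). These 6 calls held when any single library was left out.

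Against subcutaneous fat, Prx was lower in the implants labelled WT by 3.70-fold (log2 difference -1.89, SE 0.26, adjusted p = 0.00435), Cldn19 by 3.43-fold, Drp2 by 3.34-fold, Mbp by 2.65-fold and Pmp22 by 2.01-fold. Sox10 was not called (-0.56, SE 0.36, adjusted p = 0.361), nor were Cnp (0.08, adjusted p = 0.77) and Egr2 (-0.25, adjusted p = 0.767). With median-of-ratios scaling the sign of Cnp turned, still not called. Without ESM1, only the call of Mbp was left.

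Axon and glial genes gave another order than the sheath genes. Of the 14 axon genes tested, 11 were higher in the implants labelled WT than in subcutaneous fat and 12 were higher than in visceral fat. Nefl was at 3.95 (MWM1), 3.50 (MWM2), 4.62 (MWF1) and 4.68 CPM (MWF2), a log2 difference of 2.58 (SE 0.21, adjusted p = 0.00075) from subcutaneous fat, where the sheath gene Prx was higher. Nefh and the sensory sodium channel gene Scn10a also rose against both fats. Among the Schwann lineage genes, 3 were higher than in subcutaneous fat, namely Gfap (7.28, SE 0.82), Sox2 (1.65, SE 0.37) and Ngfr (1.85, SE 0.43, outside the naming rule), and 2 were lower, Dhh and Scn7a. Gfap, Sox2 and Ngfr are known from Schwann cells that do not myelinate or that respond to injury. Not all genes of the list rose with them: Scn7a was at 277 (ESM1) and 298 CPM (ESM2), against 113 to 182 CPM in the implants labelled WT. The state of the Schwann cells was not tested. Gfap varied from 33.5 (MWM2) to 484 CPM (MWF2) within the implants labelled WT. The sheath and node list had 12 genes higher than in visceral fat, Gjb1 among them (5.66, SE 0.64), and 2 higher and 4 lower than in subcutaneous fat. Fa2h, Ugt8a and Mag were among the lower genes, and higher were Cntn1 and Gjb1, a gap junction gene also active in epithelia.

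Other tissue markers differed along with these contrasts. The skeletal muscle list summed to 2938 to 39369 CPM in the implants labelled WT, to 46.7 to 786 CPM in visceral fat, and 3 of its 7 genes were higher in the implants with limma (Myl1, Acta1 and Mylpf) and 1 with edgeR. The T cell list, which also holds genes of thymocytes, summed to 388 and 847 CPM in MWF1 and MWF2 and to 12.1 and 19.9 CPM in MWM1 and MWM2. The 2 MWF libraries differed in the thymocyte genes. Rag1 was at 0 CPM in MWF1 and 159 CPM in MWF2, and Dntt at 0.638 and 97.0 CPM. The part of muscle tissue, and of the nerves within it, in these differences was not tested.

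The series asks how leptin and complement factor D from fat bear on joint disease and pain, and the contrast of implant labels is KO against WT. In the implants labelled KO, 5 of the 8 genes were lower and 1 was higher, with a background of 10.8% called. Cldn19 was 2.36-fold lower (1.15 ± 0.328 against 3.59 ± 0.696 CPM, mean ± SD, n = 3 and 4, limma log2 difference -1.24, SE 0.24, adjusted p = 0.0145). Drp2 was 2.32-fold lower (5.13 ± 2.56 against 13.8 ± 5.06 CPM, limma log2 difference -1.21, SE 0.27, adjusted p = 0.0234), and Prx 2.24-fold lower (7.54 ± 2.30 against 18.6 ± 3.33 CPM, limma log2 difference -1.17, SE 0.24, adjusted p = 0.017). Sox10 fell 2.33-fold with an adjusted p of 0.0476, and Cnp fell by 0.64 on the log2 scale (adjusted p = 0.0234), although its groups overlapped.

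Pmp22 moved the other way. It was 1.72-fold higher in the implants labelled KO (225 ± 32.2 against 130 ± 29.7 CPM, limma log2 difference 0.78, SE 0.16, adjusted p = 0.0178), with no overlap. Egr2 was at 29.7 ± 3.05 against 10.9 ± 2.83 CPM, also with no overlap, but missed the threshold (log2 difference 1.40, SE 0.41, adjusted p = 0.0611, limma). The lack of overlap holds only without MKM1. That library had 7.66 CPM of Egr2, below all libraries labelled WT, and 154 CPM of Pmp22, within their range. The share of all tested genes without overlap was not counted. Mbp was not called (-0.31, SE 0.13, adjusted p = 0.169). In this fit, the log2 differences of the transcription factors Sox10 and Egr2, the latter not called, were on opposite sides of 0. Those of the sheath genes Pmp22 and Prx were too.

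These calls rest on few libraries. Without MWM1 none of the 8 genes was called, without MWM2 Cldn19 alone, and without MKF2 Cldn19, Drp2 and Prx, while the log2 differences of Prx stayed between -1.49 and -1.08 with any single library left out. edgeR on the recovered reads did not call Cldn19 (adjusted p = 0.0818). With MKM1 and EVFN1 included, Pmp22 was not called (0.68, adjusted p = 0.123).

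By sex, the female contrast MKF against MWF called 6 of the 8 genes in the directions above, with a background of 16.5%. Drp2 was 4.31-fold lower (2.75 and 4.81 against 14.8 and 20.6 CPM, log2 difference -2.11, SE 0.34, adjusted p = 0.00512, limma), Sox10 3.76-fold, Prx 3.26-fold, Cldn19 2.98-fold and Cnp 2.71-fold lower, and Pmp22 2.15-fold higher. edgeR called 5 of the 8, without Cldn19. Along with them, 8 of 10 tested T cell genes were lower in MKF (median -4.03) and 3 of 4 B cell genes (median -4.27, 0 called by edgeR), while all 7 macrophage genes were higher (median 3.04). T cell and thymocyte markers summed to 13.05 to 51.6 CPM in MKF and 388 to 847 CPM in MWF. The part of these cells in the female contrast was not tested. Without MKF2, the calls of Drp2, Prx and Cnp were left. The male contrast has 1 library labelled KO, MKM2, whose spread is taken from the other groups. It called 0 of the 8 genes with limma and 0 with edgeR, and the background was 1.41%. Prx was there at 10.03 CPM against 15.8 and 15.7 CPM, a log2 difference of -0.63 (SE 0.37). Its adjusted p was 0.476 with limma. Cnp was at 35.6 CPM against 32.2 and 32.0 CPM (0.15, SE 0.22), on the other side of 0 from the female contrast. Cldn19 was at 1.48 CPM against 3.90 and 2.60 CPM (-0.90, SE 0.37).

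The difference between the male and female contrasts was called for 0 of the 8 genes by limma and 0 by edgeR, with a background of 0.548%. Cnp came nearest in limma (1.59, SE 0.28), followed by Drp2 (1.79, SE 0.53) and Prx (1.08, SE 0.47). This difference, too, rests on MKM2 as the only male library labelled KO in the fit. The female and male implants labelled WT differed for 1 of the 8 genes, with a background of 13.8%. Cnp was 2.89-fold higher in MWF than in MWM (log2 difference 1.53, SE 0.18, adjusted p = 0.00199, limma). Along with it, 8 of the 10 tested T cell genes were higher in MWF, led by Cd4, Lck and Cd247, and all 4 B cell genes were, while the part of lymphocytes in the level of Cnp was not tested.

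**Figure D2:**
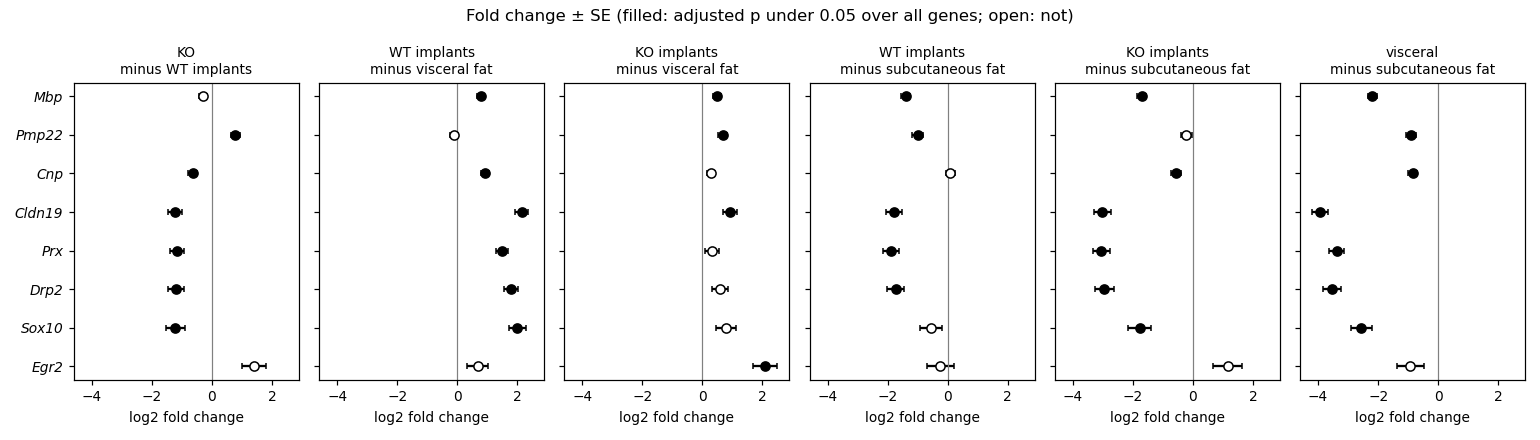
Log2 fold change on the log2(CPM + 0.5) scale (horizontal axis) with its standard error (bars) for each of the 8 genes (vertical axis) in 6 comparisons, filled where the adjusted p was under 0.05 over all tested genes. Cldn19, Prx, Drp2 and Sox10 lie left of 0 in implants labelled KO against WT, Pmp22 and Egr2 lie right of it, and 7 genes are filled in visceral against subcutaneous fat.

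Against the endogenous fats, the implants labelled KO were higher than visceral fat for 4 of the 8 genes, with a background of 24.6%. Egr2 was 4.24-fold higher (log2 difference 2.08, SE 0.40, adjusted p = 0.00642), Cldn19 1.88-fold, Pmp22 1.6-fold and Mbp 1.39-fold higher. Along with them, all 7 macrophage genes were higher (median 2.58), at sums of 4210 to 4925 against 589 to 1957 CPM, and 3 of 7 fibroblast genes were (median 1.07). The visceral codes differed in both. Mean Egr2 was 15.3 CPM in EVM and 2.59 CPM in EVFY, and EVFN2 had 6.54 CPM, against 29.7 CPM in the implants labelled KO. The macrophage sums were 1957 (EVM1), 1587 (EVM2), 590 (EVFY1), 801 (EVFY2) and 589 CPM (EVFN2). MKM1 and EVFN1, left out here, had macrophage sums of 909 and 6771 CPM. The part of macrophages and fibroblasts in the levels of Egr2 and Pmp22 was not tested. Cnp was at 0.29 (SE 0.14, adjusted p = 0.169), Prx at 0.33 (SE 0.23, adjusted p = 0.341), Drp2 at 0.59 (SE 0.26, adjusted p = 0.136) and Sox10 at 0.79 (SE 0.32, adjusted p = 0.107), none of them called. Without MKF2 only Egr2 was called, and with MKM1 and EVFN1 included none of the 8 was (Egr2 1.20, adjusted p = 0.434). Against subcutaneous fat, 6 of the 8 genes were lower, with a background of 18.3%: Prx 8.29-fold, Cldn19 8.10-fold, Drp2 7.74-fold, Sox10 3.43-fold, Mbp 3.27-fold and Cnp 1.47-fold lower. The call of Cnp (adjusted p = 0.0489) was lost whichever single library was left out (adjusted p from 0.0608 to 0.158), and that of Sox10 without ESM1 (adjusted p = 0.0912) and with all 16 libraries (0.0617). Pmp22 (-0.22, adjusted p = 0.463) and Egr2 (1.16, adjusted p = 0.135) were not called.

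In the contrast of implants labelled KO with those labelled WT, where the background was 10.8% called, the sheath and node list had 3 of 17 tested genes lower and none higher. The nodal gene Cntn1 was among them, at -1.38 (SE 0.33, adjusted p = 0.0305). The median over the list was -0.77, against -0.06 over all tested genes. Of 20 tested Schwann lineage genes, L1cam, an adhesion gene of axons and Schwann cells, fell (-0.68, adjusted p = 0.0312) and Adgrg6, a receptor gene needed for myelination, rose (0.65, adjusted p = 0.0462). These 2 of 20 are a share near the background of 10.8%. Cdh19, the third by p, was at -1.08 (adjusted p = 0.065).

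Of 14 genes for dystroglycan and laminin partners of periaxin and Drp2, Lama2, the laminin chain of the Schwann cell basal lamina and of muscle, was higher in the implants labelled KO (0.95, SE 0.16, adjusted p = 0.00688). In all, 2 of the 14 were higher and none was lower, a share near the background of 10.8%, and the list median of -0.03 was near that of all tested genes (-0.06). Lamb1 was at 0.39 (adjusted p = 0.0623). Lama2 was at 57.5 to 82.9 CPM in the implants labelled WT and at 109 to 160 CPM in those labelled KO. It was also lower in the implants labelled WT than in both fats.

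Markers of axons and of other cell types moved in the same contrast, where the background was 10.8% of all tested genes called. Of 14 tested axon genes, 10 were lower in the implants labelled KO with limma and 5 with edgeR, with Nefl at -1.59 (SE 0.19, adjusted p = 0.00146), Avil at -1.39 and Nefm at -1.77, and the list summed to 26.7 to 55.4 CPM against 68.9 to 93.0 CPM. All 7 macrophage markers were higher, led by Cd68 (2.85), Csf1r (1.78) and Adgre1 (2.60), and summed to 4210 to 4925 CPM against 517 to 969 CPM. In MKM1, left out here, they summed to 909 CPM, within the range of the implants labelled WT. Fibroblast and matrix markers summed to 16707 to 21563 CPM against 6698 to 10582 CPM, with 2 of 7 higher (Col3a1 and Postn). The skeletal muscle list summed to 75.0 to 2338 CPM against 2938 to 39369 CPM, with 1 of 7 called lower by limma (Myl1), 0 by edgeR and a median of -7.31. Of 8 immediate early genes, which respond quickly to handling and injury, Atf3 was higher (2.41, adjusted p = 0.00146) and none was lower. The shares of muscle and of immediate early genes called by limma were near the background. The part of these cell types in the levels of the 8 genes was not tested.

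Across the 14 libraries, Prx, Drp2, Cldn19, Mbp and Sox10 followed each other, while the closest genes of Cnp, Pmp22 and Egr2 were not among the 8. Pearson correlations of log2(CPM + 0.5) are given as a description, since the libraries fall into groups and share a common scaling. For Prx the 3 most similar genes were Drp2 (r = 0.99), Cldn19 (0.97) and Ddn (0.97). Those of Drp2 were Prx, Cldn19 (0.96) and Tmem28 (0.96), and Prx and Drp2 were among the 3 of Cldn19. Mbp was closest to Ddn, Prx and Cldn19 (0.95, 0.95 and 0.95), and the potassium channel genes Kcna1 (0.97) and Kcna6 (0.96) were among the 3 of Sox10. Without the 2 subcutaneous libraries, which were highest for these genes, r of Prx with Drp2 was 0.97 over the other 12 libraries, with Cldn19 0.94 and with Mbp 0.86.

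**Figure D3:**
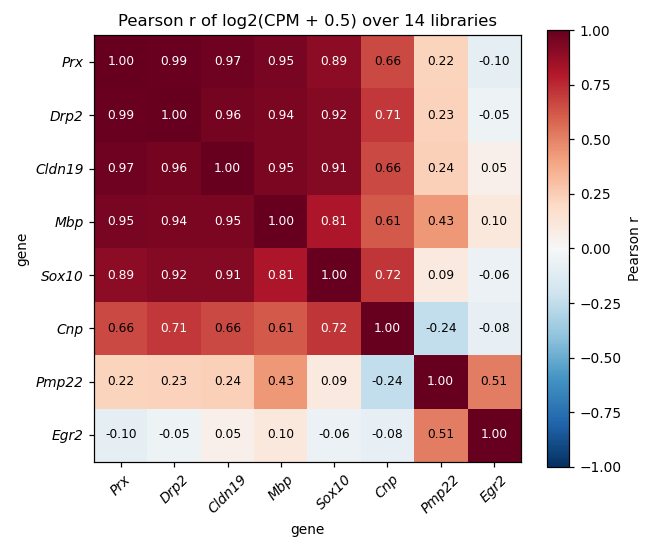
Pearson r of log2(CPM + 0.5) between each pair of the 8 genes over the 14 libraries (rows and columns are genes, colour and printed number give r). Prx, Drp2, Cldn19, Mbp and Sox10 form a block with r of 0.81 or more, Cnp follows it less closely, and Pmp22 and Egr2 lie outside it, with r between -0.24 and 0.51 to the other genes.

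Cnp was closest to Itgb7 (r = 0.95), Ifi209 (0.93) and Trim30a (0.92), an integrin of lymphocytes and 2 interferon-inducible genes. Its r with the T cell gene Cd3e was 0.77 over 14 libraries and 0.96 without subcutaneous fat. Its r with Prx was 0.66 and 0.79, with Drp2 0.71 and 0.80, and with Mbp 0.61 and 0.82, over the same 14 and 12 libraries. Cd3e itself had r = 0.68 with Prx and 0.77 with Mbp over the 12. Pmp22 was closest to B3galnt1 (0.92), Mmp2 (0.89) and Dusp22 (0.89), of which Mmp2 encodes a matrix protease of fibroblasts, and its r with Prx was 0.22 over 14 libraries and -0.47 over 12. Egr2 was closest to Cd200r3 (0.92), Dtx4 (0.91) and Ms4a6d (0.91), the last a gene of macrophages. Its r with the macrophage gene Gpnmb was 0.84 and with Cd68 0.79, against -0.10 with Prx and -0.06 with Sox10. Prx followed the axon gene Nefh only outside subcutaneous fat, with r = 0.22 over 14 libraries and 0.84 over 12.

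**Figure D4:**
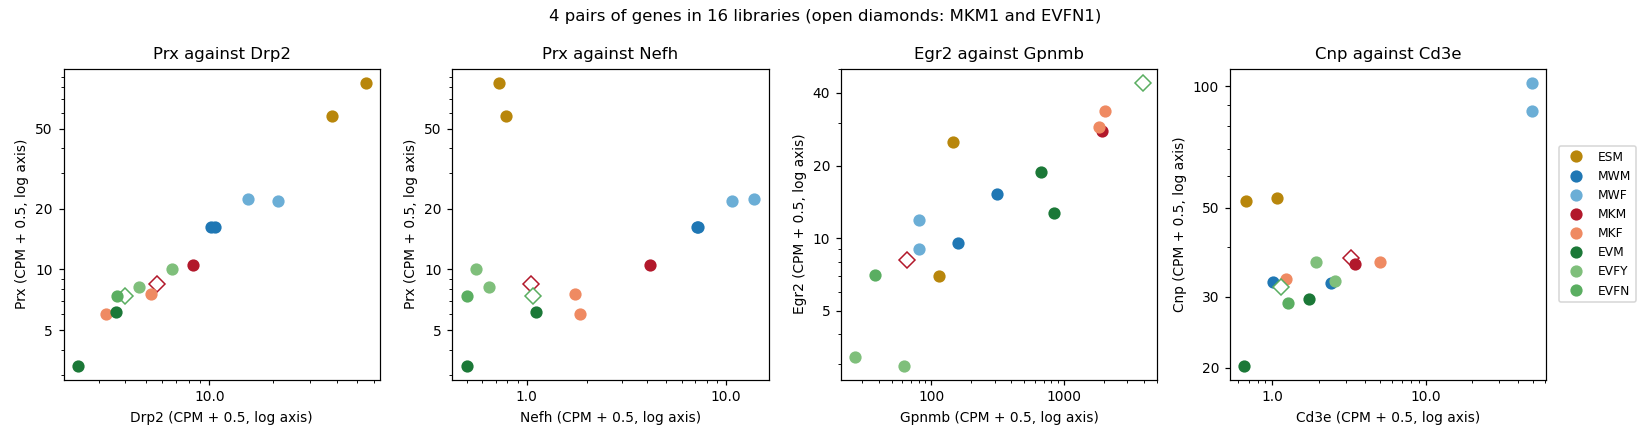
Level of Prx against Drp2 and against Nefh, of Egr2 against Gpnmb and of Cnp against Cd3e, as CPM + 0.5 on log axes, in all 16 libraries coloured by group code, with open diamonds for MKM1 and EVFN1. Libraries with more Drp2 have more Prx across the groups, the 2 ESM libraries have much Prx and little Nefh, Egr2 is high where Gpnmb is high, and the 2 MWF libraries stand apart for Cnp and Cd3e.

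Reads of overlapping genes could be shared, since the strand setting of the counting is not given in the sources used here. Exons of Prx overlap Gm15541 on the opposite strand, which was at 0.0388 to 1.16 CPM, and exons of Cldn19 overlap Gm12927, at 0 CPM in all 16 libraries. Cnp overlaps Dnajc7, which was at 59.99 to 109 CPM, on at most 616 of its 3639 exon bases. Without the strand, reads that lie on the shared bases cannot be told apart. Dnajc7 was at 85.4 (MWF1) and 109 CPM (MWF2) and at 68.7 (MWM1) and 63.5 CPM (MWM2).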

How the data were processed

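The authors deposited 1 table of CPM values for 54658 gene symbols in 16 libraries. The submitters' processing notes name mm10 as the build and list featureCounts (Subread 1.6.3), FastQC 0.11.4, cutadapt 2.7 and STAR 2.5.4, with no role or order. Settings, strand and annotation were not stated there. Every library has the same total, so a library with much RNA of muscle or lymphocytes shows lower CPM for all else. All nonzero values (100%) were whole multiples of 1 read (tolerance 0.001 reads), which returned the reads. The libraries of every code differed by more than sampling noise (chi-square per degree of freedom 22.3 to 214).

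CPM were tested as log2(CPM + 0.5) with limma 3.58.1 in R 4.3.3 (trend, robust), keeping genes that reached 1 CPM in 2 or more of the 14 libraries, with equally weighted group means and 6 residual degrees of freedom. The fit was tested on simulated data. edgeR 4.0.16 on the recovered reads, other pseudocounts, no filter, another scaling, all 16 libraries, only the compared groups, a replicate block and leaving out single libraries were alternatives. The genes, their lists and the motifs were chosen with earlier results of these data, or the upstream sequences, known. From a list, the 3 genes with the smallest p were named, and any further list gene that is named was picked with its values in view. For likeness, the 3 genes with the highest r were named, without predicted genes. Exon lengths come from the GENCODE annotation of mm10, which held 99.0% of the symbols, and upstream sequences from RefSeq. Some genes of the lists are counted but not reported by name here.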

Additional observations from a re-analysis of the deposited data

Results flagged for a closer look

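The libraries labelled EVFN1 and MKM1 were in no comparison, and 4 of their values lay above those of the other libraries of their kind. Mbp was at 85.6 CPM in EVFN1, against 48.1 to 66.3 CPM in the other 5 visceral libraries and 58.0 CPM in EVFN2. Pmp22 was at 231 CPM in EVFN1, against 109 to 174 CPM in those libraries and 109 CPM in EVFN2. Egr2 was at 43.6 CPM in EVFN1, against 2.47 to 18.4 CPM there and 6.54 CPM in EVFN2. Cnp was at 37.1 CPM in MKM1, slightly above the 32.7 to 36.0 CPM of the other 3 libraries labelled KO. MKM1 lay below all 3 of those libraries for 4 genes: Mbp at 70.5 CPM, Pmp22 at 154 CPM, Cldn19 at 0.716 CPM and Egr2 at 7.66 CPM, the last against 27.4 to 33.1 CPM. EVFN1 lay within the range of the implants labelled KO for 5 of the 8 genes, and MKM1 within the visceral range for 6 of the 8.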

How the results depend on the processing

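The 8 genes gave 41 calls over the 10 comparisons. Under the alternatives these gave 593 values, of which 509 were still called, 84 were not, and 0 changed sign. With all 16 libraries, the count for implants labelled KO against visceral fat went from 4 to 0. The count for the male and female difference went from 0 to 1 (Cnp) with a pseudocount of 2, with no filter and with all 16 libraries. Median-of-ratios scaling took the count for female against male implants labelled WT from 1 to 2 (Pmp22 added). It also moved the median over all genes by more than 0.1 in 6 comparisons, by -0.25 to 0.13. Leaving out 1 library gave 0 to 6 genes for KO against WT labels, 3 to 5 in females, 0 in males and for the difference, 1 for female against male, 6 for WT labels against visceral, 1 to 5 for KO labels against visceral, 1 to 5 for WT labels against subcutaneous, 4 to 6 for KO labels against subcutaneous and 4 to 7 for visceral against subcutaneous fat. Fewer libraries leave fewer degrees of freedom. Without MKM2 the male contrast and the difference could not be fitted. With a replicate block, 5 genes were called for KO against WT labels (Sox10 lost, adjusted p = 0.0517), 5 and 6 against subcutaneous fat for KO labels and visceral fat (Cnp lost in both), and no other call changed. The replicate numbers showed no pairing common to all codes: r of deviations over 15 pairs of groups ran from -0.44 to 0.34, with 7 over 0.1. Among ESM, EVM, MKF and MWM, however, every r was positive, from 0.12 to 0.34. What the same-numbered libraries of these codes share was not tested. With all 16 libraries the genes called for KO against WT labels went from 1924 to 309, for KO labels against visceral fat from 4402 to 0 and against subcutaneous fat from 3266 to 49. edgeR on the recovered reads called 1752, 4468 and 3030 genes in these. The cause of these moves was not tested.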
